A study of Homo sapiens with 6 samples.

Results

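The plasma membrane amino acid transporters described here are 10 genes taken by symbol from a named list, of the 30716 genes in the expression table: SLC38A1, SLC38A2, SLC1A4, SLC1A5, SLC7A5, SLC7A6, SLC3A2, SLC43A1, SLC7A1 and SLC6A9. RNA was sequenced from SNU16, an established human gastric carcinoma cell line, in 2 groups of 3 libraries. The shcon cells carried a non-targeting short hairpin RNA (shRNA) and the shENO1 cells carried an shRNA against ENO1, the glycolytic enzyme alpha-enolase. The hairpins were delivered by lentivirus and the cells were selected with puromycin. The hairpin sequence, the number of hairpins and whether the selected cells were pooled are not stated. The submitters call the libraries biological replicates, but nothing says that they came from separate cultures, so that p-values measure only the spread between these samples, which may be technical.

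Amino acids cross the plasma membrane through carriers of the solute carrier (SLC) families. SLC38A1 and SLC38A2 use the sodium gradient to bring in small neutral amino acids such as alanine, serine and glutamine. SLC1A4 and SLC1A5 exchange neutral amino acids. The exchangers of the SLC7 family let 1 amino acid in while another leaves, and several of them reach the cell surface only in a disulfide-linked dimer with the heavy chain SLC3A2, also called CD98 or 4F2hc. Leucine that enters through SLC7A5 and SLC3A2 is a signal for the growth kinase complex mTORC1. Many of these genes are targets of ATF4, a transcription factor whose translation increases when amino acids are scarce.

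ENO1 was lower in every shENO1 library. Its level was 323.0, 311.8 and 386.5 FPKM (fragments scaled by transcript length and by library depth) in shcon and 99.49, 84.87 and 91.14 FPKM in shENO1, a log2 fold change of -1.88 (SE 0.11, adjusted p = 0.000425). All p-values adjusted over genes come from limma on log2(FPKM + 1) over the 15181 genes whose mean FPKM was 0.5 or more, and a log2 fold change is shENO1 minus shcon on that scale, which understates the change of genes with low values. All 10 transporters passed the filter. The libraries held an estimated 15572150 to 16963600 fragments. The keratins KRT8 and KRT18 were at 193 to 278 FPKM in shcon and 85.9 to 122 FPKM in shENO1, whereas EPCAM and CDH1 lay between 0.602 and 1.59 FPKM and KRT19 at or below 0.0515 FPKM in all libraries. The epithelial marker CLDN4 was at 5.79 to 9.8 FPKM in shcon and 7.02 to 9.75 FPKM in shENO1. The leukocyte markers PTPRC and CD68 were at or near 0. The endothelial marker CDH5 was at 9.24 to 16.3 FPKM in shcon and 3.82 to 4.95 FPKM in shENO1, with PECAM1 and VWF at or below 0.108 FPKM. The fibroblast markers in the table, COL1A1, PDGFRB and DCN, summed to 11.2 to 18.8 FPKM in shcon and 7.04 to 8.24 FPKM in shENO1. The part of these marker differences in the results below was not tested.

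Of the 10 transporters, 5 rose, 1 fell and 4 did not pass the threshold of an adjusted p of 0.05. SLC38A2, SLC38A1, SLC1A4, SLC7A1 and SLC1A5 rose and SLC3A2 fell, whereas SLC7A5, SLC7A6, SLC6A9 and SLC43A1 did not pass. Over all genes tested, 15.1% were called higher and 14.4% lower. The median log2 fold change of the 10 genes was 0.32, beside 0.03 over all genes tested. The values of the 2 groups did not overlap for 8 of the 10 transporters, where 46.6% of all genes tested had groups that did not overlap.

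**Figure D1:**
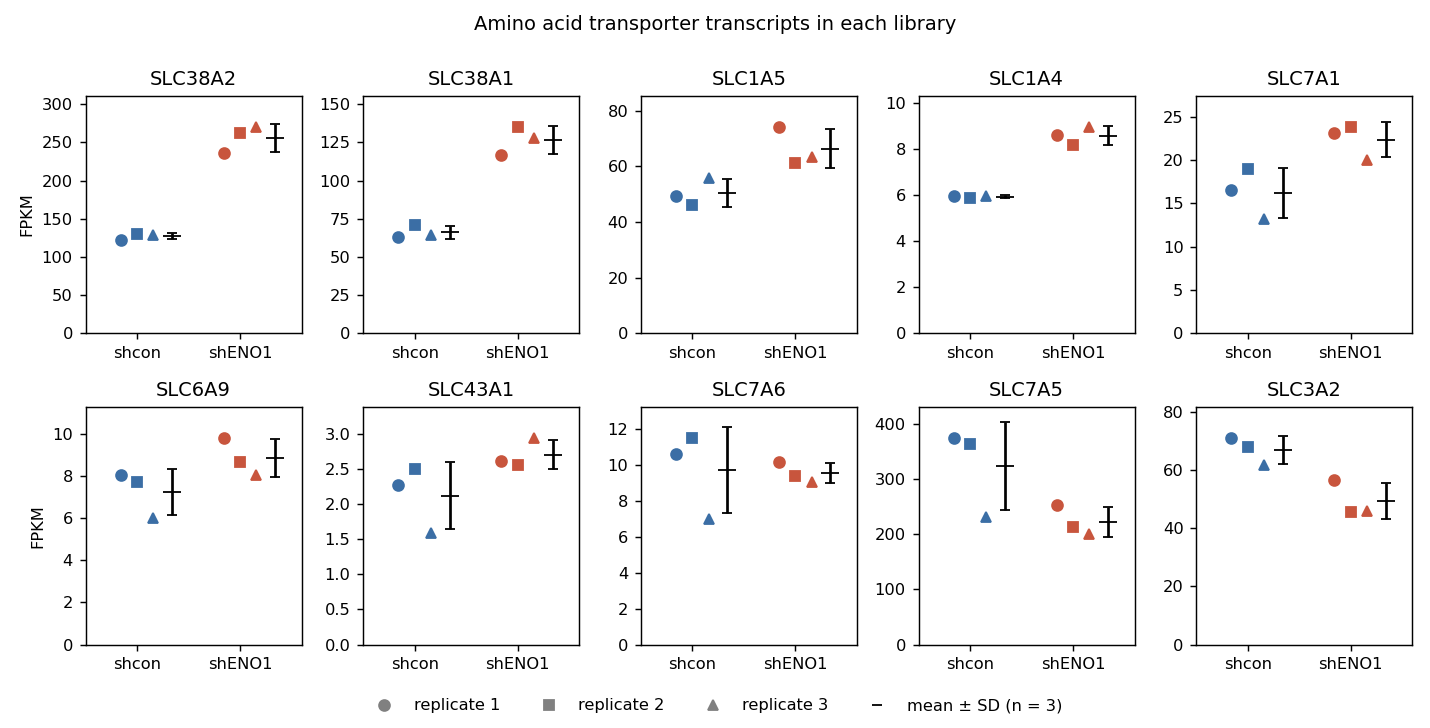
FPKM of each transporter in each library (circle, square and triangle are replicates 1, 2 and 3), with the mean and SD of each group of 3 beside the points. All axes start at 0. SLC38A2 and SLC38A1 show the widest separation, and SLC7A5 and SLC7A6 are the genes whose groups overlap, with the shcon replicate 3 below the other shcon libraries in both.

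The promoters are shown first, since several of these genes are known targets of ATF4 and of E-box factors such as MYC. Each window runs from 250 bases before to 50 bases after a RefSeq transcription start (GRCh38.p14), and all 10 genes matched by symbol, with 17 starts in all. The letters TGATGNAA, the core that dimers of C/EBP and ATF factors bind, were searched on both strands. They were found in 5 of the 10 genes, compared with 2.53% of the 9814 tested genes that have a promoter sequence. Counted by start, they were in 5 of the 17, compared with 3.62% of the 35116 starts in the reference. A match of letters is a description of the sequence and not a measured binding site. The stretches around the matches are printed 5′ to 3′ on the strand of the gene, with the matched letters in capitals. In SLC1A4 and SLC3A2 the match is on the opposite strand, so that its reverse complement is read.
SLC38A1 (chr12:46266493-46266540, minus strand): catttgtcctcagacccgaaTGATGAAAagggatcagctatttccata
SLC7A1 (chr13:29595663-29595688, minus strand): gcactgcTGATGAAAcctggcgccgg
SLC1A5 (chr19:46784884-46784931, minus strand): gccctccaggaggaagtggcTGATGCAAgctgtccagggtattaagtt
SLC1A4 (chr2:64989372-64989419, plus strand): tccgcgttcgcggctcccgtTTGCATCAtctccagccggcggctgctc
SLC3A2 (chr11:62881725-62881748, plus strand): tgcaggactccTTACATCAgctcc
The first 4 of these genes rose and SLC3A2 fell. Except for SLC7A1, the starts concerned lie inside the span of the gene in the expression table. The matches of SLC38A1 and SLC1A4 span the start, those of SLC7A1 and SLC3A2 lie downstream of it at bases 8 to 15 and 38 to 45, and that of SLC1A5 lies upstream of its start, at bases -97 to -90. SLC38A2, which had the highest log2 fold change, had neither this motif nor the E-box in its window.

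The E-box CACGTG, searched on both strands and not overlapping the first motif, was found in 3 of the 10 genes, beside 12.7% of the tested genes with a promoter sequence. Counted by start, it was in 3 of the 17, beside 7.26% of starts in the reference. The stretches show which genes carry it, with the E-box in capitals.
SLC7A5 (chr16:87869612-87869657, minus strand): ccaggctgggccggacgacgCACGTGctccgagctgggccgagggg
SLC43A1 (chr11:57515789-57515834, minus strand): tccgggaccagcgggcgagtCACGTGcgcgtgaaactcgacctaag
SLC1A5 (chr19:46787318-46787363, minus strand): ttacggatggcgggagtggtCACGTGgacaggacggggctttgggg
Of these genes SLC1A5 rose, and SLC7A5 and SLC43A1 did not pass the threshold. SLC1A5 is the gene with both motifs, at different starts.

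The sodium-coupled neutral amino acid transporters SLC38A2 (SNAT2) and SLC38A1 (SNAT1) rose the most among the 10 genes in the values as deposited, although not with the trends of GC content and length removed, where SLC1A5 was highest. Both carry glutamine, alanine and other small neutral amino acids into the cell, and SLC38A2 is known to be induced when amino acids are withdrawn. SLC38A2 (ENSG00000134294, chr12:46358188-46372773, minus strand) was at 122.5, 130.5 and 128.5 FPKM in shcon and at 235.6, 262.8 and 270.8 FPKM in shENO1. Every shENO1 library lay above every shcon library, and the means were 127.2 ± 4.19 (SD, n = 3) and 256.4 ± 18.5 FPKM (SD, n = 3). The log2 fold change was 1.00 (SE 0.09, adjusted p = 0.00152). SLC38A1 (ENSG00000111371, chr12:46183063-46270017, minus strand) was at 63.09, 70.93 and 64.56 FPKM in shcon and at 116.8, 135.3 and 127.7 FPKM in shENO1. The groups were again fully separated, with means of 66.19 ± 4.17 and 126.6 ± 9.31 FPKM (SD, n = 3) and a log2 fold change of 0.93 (SE 0.09, adjusted p = 0.00221). Both calls held when any single library was left out. With trends of GC content and length removed, the log2 fold changes were smaller, 0.61 (adjusted p = 0.00205) for SLC38A2 and 0.62 (adjusted p = 0.00106) for SLC38A1.

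The ratio of SLC38A2 to SLC38A1, which does not depend on library scaling, was 1.94, 1.84 and 1.99 in shcon and 2.02, 1.94 and 2.12 in shENO1. It was higher in shENO1 in each of the 3 pairs of equally numbered libraries, but the groups overlapped and the difference of 0.08 on the log2 scale was not resolved (two-sided exact permutation test, p = 0.2, adjusted p over 6 ratios = 0.3). With 3 libraries against 3, no such test can give a p below 0.1.

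The neutral amino acid exchangers of the SLC1 family also rose, by less in the values as deposited. SLC1A4 (ASCT1) exchanges alanine, serine and cysteine, and SLC1A5 (ASCT2) is in addition a main route of glutamine into many tumour cells. SLC1A4 (ENSG00000115902, chr2:64988477-65023865, plus strand) was at 5.962, 5.87 and 5.979 FPKM in shcon and 8.623, 8.162 and 8.983 FPKM in shENO1. The shcon libraries lay very close together and the groups were separated (log2 fold change 0.47, SE 0.08, adjusted p = 0.00758). Its value was similar with the trends removed, at 0.41 (adjusted p = 0.00815).

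SLC1A5 (ENSG00000105281, chr19:46774883-46788594, minus strand) was at 49.25, 46.04 and 55.96 FPKM in shcon and 74.32, 61.41 and 63.27 FPKM in shENO1. The groups did not overlap, with means of 50.42 ± 5.06 and 66.33 ± 6.98 FPKM (SD, n = 3), and the log2 fold change was 0.39 (SE 0.11, adjusted p = 0.0358). The call was lost when any library other than shcon replicate 3 was left out. The adjusted p from limma was 0.117 without shcon replicate 1 (log2 fold change 0.37), 0.11 without shcon replicate 2 (0.33), 0.0741 without shENO1 replicate 1 (0.31), 0.0769 without shENO1 replicate 2 (0.44) and 0.0855 without shENO1 replicate 3 (0.42). With the trends of GC content and length removed, the value of SLC1A5 was larger, at 0.73 (adjusted p = 0.0022). The ratio of SLC1A5 to SLC1A4 was 8.26, 7.84 and 9.36 in shcon and 8.62, 7.52 and 7.04 in shENO1, with overlapping groups (difference on the log2 scale -0.14, two-sided exact permutation test, p = 0.4, adjusted p = 0.48).

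SLC3A2 (ENSG00000168003, chr11:62856004-62888880, plus strand), the heavy chain that carries the SLC7 light chains to the surface, was the member that fell. It was at 70.98, 67.97 and 61.49 FPKM in shcon and 56.41, 45.48 and 45.83 FPKM in shENO1. The groups did not overlap, the means were 66.81 ± 4.85 and 49.24 ± 6.21 FPKM (SD, n = 3), and the log2 fold change was -0.44 (SE 0.11, adjusted p = 0.0242). The call was lost without shcon replicate 1 (log2 fold change -0.39, adjusted p = 0.0971), shcon replicate 2 (-0.42, adjusted p = 0.0689), shENO1 replicate 2 (-0.39, adjusted p = 0.104) or shENO1 replicate 3 (-0.39, adjusted p = 0.0964), all by limma, and also after quantile normalization (-0.33, adjusted p = 0.0681). With the trends removed the log2 fold change was -0.28 and passed (adjusted p = 0.0288).

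SLC7A5 (ENSG00000103257, chr16:87830023-87869507, minus strand), also called LAT1, exchanges leucine and other large neutral amino acids in dimer with SLC3A2. It was the most abundant of the 10 transcripts in shcon, at 375.1, 363.4 and 232.0 FPKM, and was at 252.3, 212.8 and 200.9 FPKM in shENO1. The shcon replicate 3 fell between the shENO1 libraries, so that the groups overlapped. The means were 323.5 ± 79.5 and 222.0 ± 26.9 FPKM (SD, n = 3), and the log2 fold change of -0.52 did not pass (SE 0.19, 95% confidence interval -0.96 to -0.07, adjusted p = 0.0774). The call depended on the model. With the replicate number as a block, where 17.9% of all genes tested were called lower, the adjusted p of SLC7A5 was 0.0238, and without shcon replicate 3 the log2 fold change was -0.74 (adjusted p = 0.00506). After quantile normalization it was -0.12 (adjusted p = 0.661) and with the trends of GC content and length removed -0.18 (adjusted p = 0.426).

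SLC7A6 (ENSG00000103064, chr16:68264516-68301823, plus strand), or y+LAT2, is another light chain of SLC3A2 and exchanges cationic for neutral amino acids. Its level was 10.59, 11.5 and 6.983 FPKM in shcon and 10.18, 9.392 and 9.047 FPKM in shENO1. The shENO1 libraries lay inside the range of the shcon libraries. The means were 9.691 ± 2.39 and 9.54 ± 0.581 FPKM (SD, n = 3), with a log2 fold change of 0.01 (95% confidence interval -0.38 to 0.39, adjusted p = 0.987). The sign was negative in the fit without shcon replicate 3, at -0.19 (adjusted p = 0.121).

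SLC43A1 (ENSG00000149150, chr11:57484534-57515780, minus strand), or LAT3, moves large neutral amino acids without a heavy chain and was the least abundant of the 10. It was at 2.281, 2.503 and 1.586 FPKM in shcon and 2.624, 2.558 and 2.95 FPKM in shENO1. The shENO1 libraries were all above the shcon libraries, but by a margin smaller than the spread within shcon, and the log2 fold change of 0.26 did not pass (SE 0.13, 95% confidence interval -0.05 to 0.57, adjusted p = 0.177). Each value rested on an estimated 93 to 162 fragments, fewer than for any other member. Without shcon replicate 3 SLC43A1 was at 0.13 (adjusted p = 0.341), and with the trends removed at 0.62 (adjusted p = 0.025).

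Ratios within a library separated the leucine carriers in the values as deposited. The ratio of SLC7A5 to SLC7A6 was 35.4, 31.6 and 33.2 in shcon and 24.8, 22.7 and 22.2 in shENO1, without overlap and with shcon replicate 3 beside the other shcon libraries (difference on the log2 scale -0.53, two-sided exact permutation test, p = 0.1, adjusted p = 0.2). The ratio of SLC43A1 to SLC7A5 was 0.00608, 0.00689 and 0.00684 in shcon and 0.0104, 0.012 and 0.0147 in shENO1, a difference of 0.89 on the log2 scale (exact p = 0.1, adjusted p = 0.2). The ratio of SLC7A6 to SLC3A2 was also higher in every shENO1 library, at 0.18, 0.207 and 0.197 against 0.149, 0.169 and 0.114 (difference 0.45, exact p = 0.1, adjusted p = 0.2). These 3 ratios reached the smallest p the design allows, and none passed a threshold of 0.05. The ratio of SLC7A5 to its heavy chain SLC3A2 was 5.29, 5.35 and 3.77 in shcon and 4.47, 4.68 and 4.38 in shENO1, with overlapping groups (difference -0.07, exact p = 0.8, adjusted p = 0.8). From the fold changes with trends removed, the differences were -0.06 for SLC7A5 to SLC7A6, 0.80 for SLC43A1 to SLC7A5 and 0.16 for SLC7A6 to SLC3A2. These use log2(FPKM + 1), whereas the ratios use FPKM alone, so that the 2 are not on the same scale for genes with low values. For SLC43A1 to SLC7A5, 0.89 and 0.80 therefore do not show a fall. On the scale of log2(FPKM + 1) the fold changes as deposited were 0.26 for SLC43A1 and -0.52 for SLC7A5. The sign turned for SLC7A5 to SLC3A2, at 0.10, and for SLC1A5 to SLC1A4, at 0.32. For SLC38A2 to SLC38A1 it also turned, at -0.02.

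**Figure D2:**
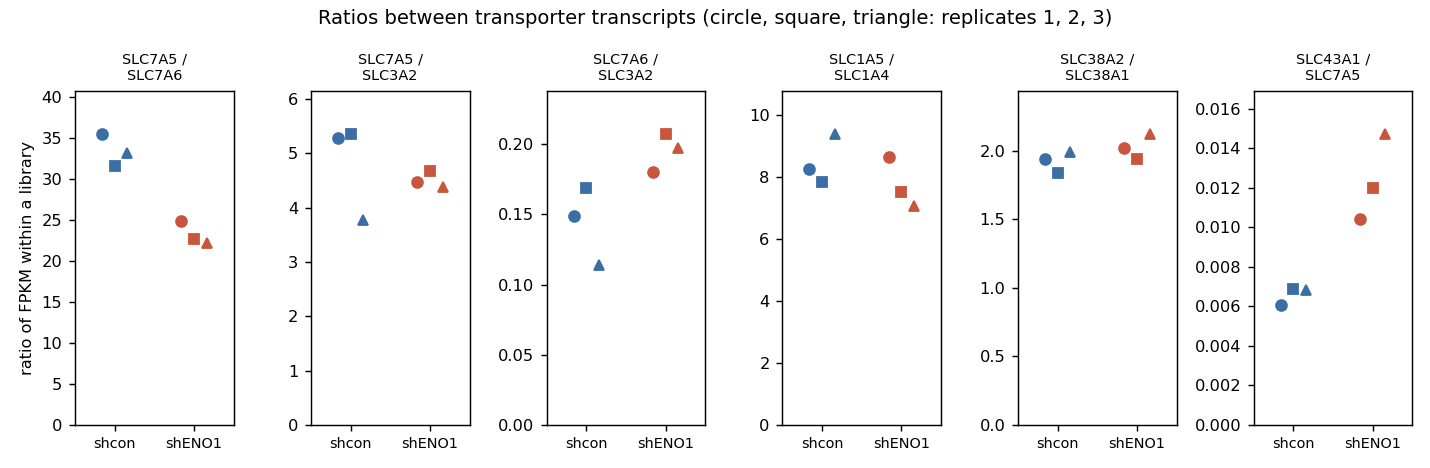
Ratio of the FPKM of 2 transporters within each library, for the 6 pairs compared (circle, square and triangle are replicates 1, 2 and 3). All axes start at 0. The groups are separate for SLC7A5 to SLC7A6, SLC7A6 to SLC3A2 and SLC43A1 to SLC7A5, and overlap for the other 3 pairs.

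Among the 6 light chains listed for SLC3A2, SLC7A11 rose, and SLC7A5 and SLC7A6 did not pass. SLC7A7, SLC7A8 and SLC7A10 were below the filter. SLC7A11 (xCT), which imports cystine in exchange for glutamate, was at 4.933, 5.055 and 5.986 FPKM in shcon and 23.66, 28.48 and 26.7 FPKM in shENO1 (log2 fold change 2.11, SE 0.11, adjusted p = 0.000241). As a share of the summed FPKM of SLC7A5, SLC7A6 and SLC7A11, it was 1.26%, 1.33% and 2.44% in shcon and 8.27%, 11.4% and 11.3% in shENO1. SLC7A5 remained the main light chain transcript in every library, at 94.7% to 96.0% of that sum in shcon and 84.9% to 88.2% in shENO1.

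SLC7A1 (ENSG00000139514, chr13:29509414-29595688, minus strand), or CAT1, takes up arginine, lysine and ornithine. It was at 16.54, 18.98 and 13.18 FPKM in shcon and 23.16, 23.88 and 20.03 FPKM in shENO1. The groups did not overlap, with means of 16.23 ± 2.91 and 22.36 ± 2.05 FPKM (SD, n = 3), and the log2 fold change of 0.45 passed narrowly (SE 0.14, adjusted p = 0.0447). The adjusted p from limma was 0.107 without shcon replicate 1 (log2 fold change 0.47), 0.0537 without shcon replicate 3 (0.32), 0.0982 without shENO1 replicate 1 (0.42), 0.149 without shENO1 replicate 2 (0.40) and 0.0697 without shENO1 replicate 3 (0.52). It was 0.0162 with the trends of GC content and length removed (0.49). The related cationic carrier SLC7A2 (CAT2), not a member of the list, rose from 13.15, 13.91 and 10.35 FPKM to 33.73, 37.76 and 35.74 FPKM (log2 fold change 1.46, SE 0.12, adjusted p = 0.00113). Together SLC7A1 and SLC7A2 summed to 29.69, 32.89 and 23.53 FPKM in shcon and 56.89, 61.64 and 55.77 FPKM in shENO1.

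SLC6A9 (ENSG00000196517, chr1:43991500-44031467, minus strand), the glycine transporter GlyT1, was at 8.036, 7.714 and 5.993 FPKM in shcon and 9.804, 8.659 and 8.05 FPKM in shENO1. The lowest shENO1 library lay just above the highest shcon library. The means were 7.247 ± 1.1 and 8.837 ± 0.89 FPKM (SD, n = 3), and the log2 fold change of 0.26 did not pass (95% confidence interval -0.03 to 0.55, adjusted p = 0.153). Without shcon replicate 3 it was 0.15 (adjusted p = 0.28), and with the trends removed 0.60 (adjusted p = 0.00375).

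**Figure D3:**
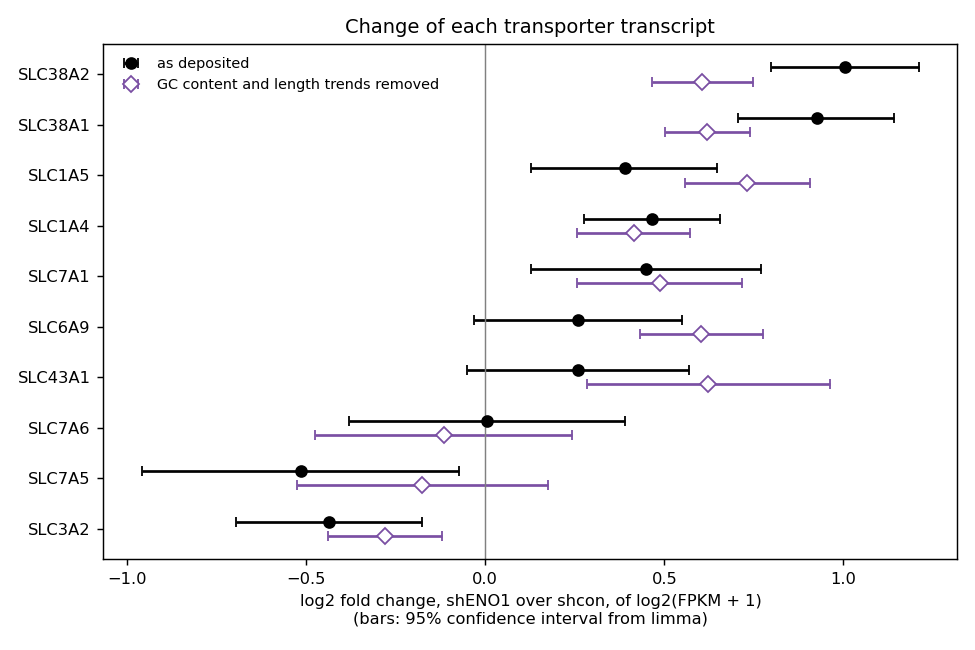
Log2 fold change (shENO1 minus shcon, of log2(FPKM + 1)) of each transporter with its 95% confidence interval from limma, for the values as deposited (filled circles) and with trends of GC content and length removed (open diamonds). SLC38A2, at 1.00 and 0.61, and SLC38A1, at 0.93 and 0.62, move towards 0 when the trends are removed, and SLC1A5, SLC6A9 and SLC43A1 move away from it.

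GC content moved with the fold change across the transcriptome, and the 10 transporters span much of its range. Over the 7441 genes whose mean FPKM was 5 or more, the log2 fold change and the GC content of the annotated transcripts had a Spearman correlation of -0.71. This correlation is across genes of the same libraries, and genes are not independent replicates. SLC38A2, with a GC content of 38.8%, had the lowest of the 10, and the 514 genes within 1 percentage point of it had a median log2 fold change of 0.39. SLC38A1 was at 43.3% and its 734 neighbours in GC content had a median of 0.21. At the other end, SLC7A5 was at 60.4% and SLC6A9 at 60.7%, where the medians of the neighbours were -0.39 and -0.40. SLC1A5 (58.8%) and SLC43A1 (59.7%) thus had positive values where the genes of like GC content had medians of -0.33 and -0.37, and SLC7A5 at -0.52 lay closer to its neighbours. Removing a smooth trend of GC content and length from each library gave 7 members higher, 1 lower and 2 not passed, with a median of 0.55. Over all genes tested in that fit, 11.8% were called higher and 9.51% lower, and the median was 0.02. The part of GC content in these differences was not tested.

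**Figure D4:**
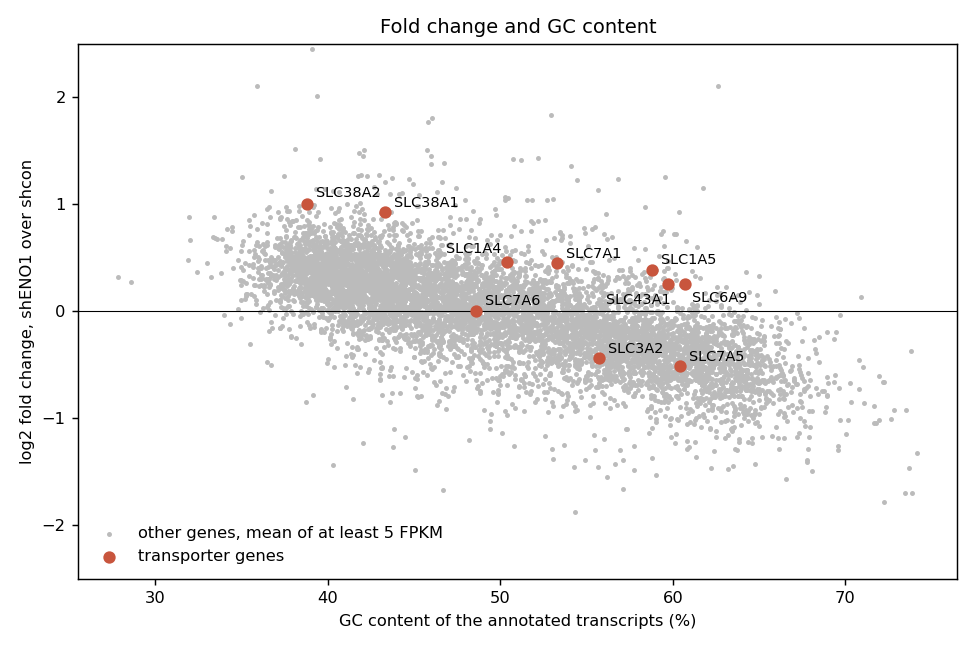
Log2 fold change (shENO1 minus shcon) against the GC content of the annotated transcripts, for the 10 transporters (red) and the other genes whose mean FPKM was 5 or more (grey). The plotted range leaves out 2 genes. SLC38A2 and SLC38A1 lie at low GC content with high values, and SLC1A5, SLC43A1 and SLC6A9 lie above most genes of like GC content.

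The shcon replicate 3 stood apart for some transporters and not for others. Relative to the mean of shcon replicates 1 and 2, it was at 0.628 for SLC7A5, 0.632 for SLC7A6, 0.663 for SLC43A1, 0.742 for SLC7A1 and 0.761 for SLC6A9. For SLC3A2 the value was 0.885, and SLC38A1, SLC1A4 and SLC38A2 lay at 0.964, 1.01 and 1.02. SLC1A5, at 1.17, was higher in that library than in the other shcon libraries. Its estimated depth of 16626450 fragments was within the range of the other libraries. When shcon replicate 3 and shENO1 replicate 1 were both left out, a choice made after seeing the data, 3 transporters were called lower, SLC7A5 at -0.83, SLC7A6 at -0.24 and SLC3A2, where 23.6% of all genes tested in that fit were called lower.

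In the values as deposited, the order of the transcripts changed at the top. FPKM is scaled by length, which helps to set levels of different genes side by side, but it is not adjusted for GC content. The GC content was 38.8% for SLC38A2 and 60.4% for SLC7A5. With the trends of GC content and length removed, their log2 fold changes were 0.61 and -0.18, and the order was not computed on that scale. In shcon the order was SLC7A5, SLC38A2, SLC3A2, SLC38A1, SLC1A5, SLC7A1, SLC7A6, SLC6A9, SLC1A4 and SLC43A1, and the neighbours SLC3A2 and SLC38A1, and SLC7A6 and SLC6A9, overlapped between libraries. In shENO1 SLC38A2 came first and SLC7A5 second, with overlapping libraries, followed by SLC38A1, SLC1A5, SLC3A2 and SLC7A1. SLC7A6, SLC6A9 and SLC1A4 came next, each overlapping its neighbour, and SLC43A1 was last in both groups. By their mean level SLC7A5 and SLC38A2 stood at the percentiles 99.6 and 99.2 of all genes tested, and SLC43A1 at 33.3.

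The summed FPKM of the 10 transporters was 724.4, 725.4 and 576.2 in shcon and 789.8, 770.5 and 757.6 in shENO1. SLC7A5 made up 51.8%, 50.1% and 40.3% of this sum in shcon and 31.9%, 27.6% and 26.5% in shENO1. SLC38A1 and SLC38A2 together made up 25.6%, 27.8% and 33.5% in shcon and 44.6%, 51.7% and 52.6% in shENO1. Both shares, taken from the values as deposited, were separate between the groups in these libraries. They were not computed with the trends of GC content and length removed.

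**Figure D5:**
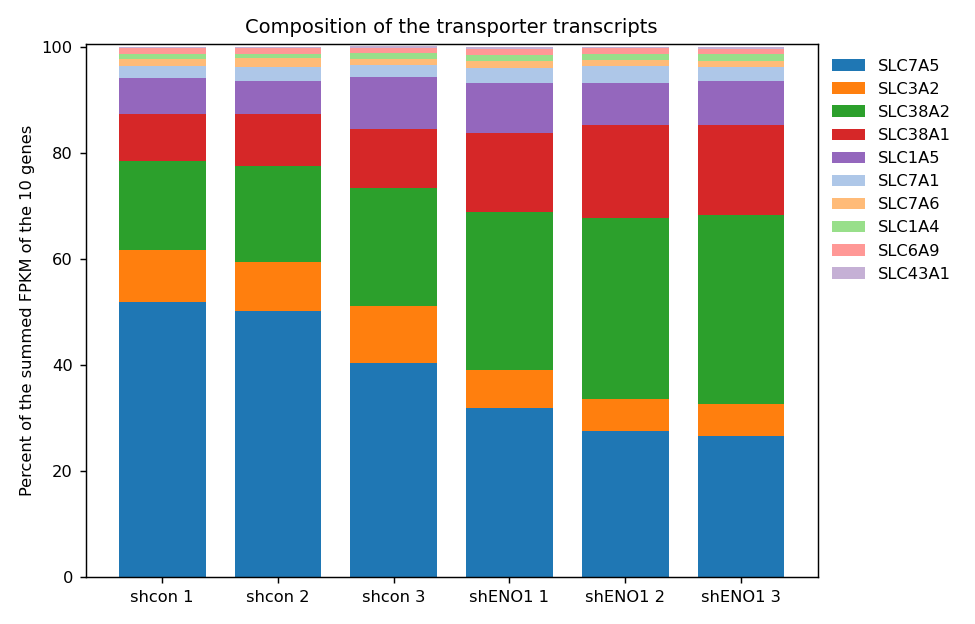
Share of each transporter in the summed FPKM of the 10 genes, in percent, for each library. The SLC7A5 share lies at 40.3% to 51.8% in shcon and 26.5% to 31.9% in shENO1, and the green and red segments of SLC38A2 and SLC38A1 are taller in shENO1.

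The other plasma membrane amino acid carriers that were expressed also rose or did not pass. Of 28 listed genes 19 were in the table and 6 passed the filter. Of these 6, 4 were higher and 0 lower, beside 15.1% and 14.4% of all genes tested. All 4 that had an unadjusted p under 0.05 by limma were higher, and the median log2 fold change was 0.59. Beside SLC7A11 and SLC7A2, SLC6A14, a broad neutral and cationic amino acid transporter, rose at a low level, from 1.077 ± 0.0203 to 2.522 ± 0.356 FPKM (SD, n = 3, log2 fold change 0.76, adjusted p = 0.00495). With the trends removed SLC6A14 was at 0.35 and did not pass (adjusted p = 0.066). The taurine transporter SLC6A6 rose by 0.42 on the log2 scale (adjusted p = 0.0115). SLC38A5 (SNAT5), the most abundant of the 6, was at 32.74 ± 7.17 and 33.3 ± 1.84 FPKM (SD, n = 3, log2 fold change 0.04, adjusted p = 0.847), and the glutamate transporter SLC1A1 was at 0.11 (adjusted p = 0.401), or -0.05 with the trends removed (adjusted p = 0.774).

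Of 8 listed carriers of amino acids across the lysosomal membrane, 7 were tested, 0 were higher and 1 was lower, beside 15.1% and 14.4% of all genes tested, so that the count does not set the list apart, and their median was -0.15. With the trends removed the median was 0.03, with 4 of the 7 values above 0 and 0 called lower. By limma, 1 of the 7 had an unadjusted p under 0.05, with or without quantile normalization, and 0 did with the trends removed. The gene called lower was SLC66A1, an exporter of cationic amino acids, at -0.53 (adjusted p = 0.0184), and with the trends removed it was at -0.01 (adjusted p = 0.966). The count of lysosomal carriers called lower was 0 without shcon replicate 1 or shENO1 replicate 2 and 2 without shcon replicate 3. MFSD12, which imports cysteine into the lysosome and was the most abundant of the list, was at 146.3 ± 59.2 and 114.0 ± 17.9 FPKM (SD, n = 3, log2 fold change -0.27, adjusted p = 0.537, and 0.20 with the trends removed, adjusted p = 0.593).

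Of 19 listed ATF4 targets of amino acid supply and stress, 16 were tested, 7 were higher and 2 lower, with a median of 0.46. Over all genes tested, 15.1% were higher and 14.4% lower, so that the count called lower does not set the list apart. With the replicate block 8 were higher, where 19.3% of all genes tested were called higher. With the trends removed 9 were higher and 1 lower, beside 11.8% and 9.51% of all genes tested in that fit. In the values as deposited SLC7A11, at 2.11, and CHAC1, which degrades glutathione, at 2.10 (SE 0.27, adjusted p = 0.00376), were highest and nearly equal. SESN2, a leucine-binding inhibitor of mTORC1, followed at 1.26 (SE 0.10, adjusted p = 0.00104). With the trends removed CHAC1 was at 2.70 (adjusted p = 0.00171), SESN2 at 1.62 (adjusted p = 0.000304) and SLC7A11 at 1.58 (adjusted p = 0.000104), so that SLC7A11 was no longer the highest. The proline synthesis enzymes PYCR1 at -0.45 (adjusted p = 0.0156) and ALDH18A1 at -0.30 (adjusted p = 0.0347) fell, and PYCR1 was at 0.06 with the trends removed. The count called lower was 1 without shcon replicate 2, and 0 when shcon replicate 1 was left out, as it was when either shENO1 replicate 2 or replicate 3 was. DDIT4, the most abundant target, was at -0.16 and did not pass (adjusted p = 0.346), but at 0.38 and called higher with the trends removed (adjusted p = 0.0222).

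All 5 transcription factors listed as acting on transporter genes were higher, beside 15.1% of all genes tested. This list, like the other gene lists here, was chosen with earlier results of these data known, so that the count is a description only. ATF4 itself was at 78.22, 78.46 and 99.73 FPKM in shcon and 117.9, 112.3 and 122.2 FPKM in shENO1 (log2 fold change 0.46, adjusted p = 0.0213). CEBPG, a dimer partner of ATF4, had the highest value at 1.28 (adjusted p = 0.00206). MYC, an E-box factor known to raise SLC1A5 and SLC7A5 transcription, rose by 0.39 on the log2 scale (adjusted p = 0.0161), and the hypoxia factors HIF1A and EPAS1 by 0.39 (adjusted p = 0.0176) and 0.46 (adjusted p = 0.0115). With the trends removed ATF4 was at 0.74 (adjusted p = 0.0034) and MYC at 0.69 (adjusted p = 0.00101), and HIF1A was at 0.02 and not called (adjusted p = 0.859). Among the ubiquitin ligases that act on transporter proteins, NEDD4 rose by 0.85 (adjusted p = 0.00328) and NEDD4L by 0.34 (adjusted p = 0.0332), and RNF5 was at -0.19 (adjusted p = 0.178). With the trends removed NEDD4 was at 0.41 (adjusted p = 0.00423), NEDD4L at 0.07 (adjusted p = 0.618) and RNF5 at 0.19 and called higher (adjusted p = 0.0465).

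Some of the transporters overlap other annotated genes, and whether the counting used strand is not stated. On the opposite strand, SLC7A6OS had 21.4% and ENSG00000279649 17.3% of the mean FPKM of SLC7A6. CCDC24, also on the opposite strand, had 25.7% of that of SLC6A9, so that part of these values could belong to the partner gene. RNU6-548P, on the same strand within SLC1A4, had 12.1% of its mean FPKM. These are shares of FPKM, which is scaled by length, and shares of fragments were not computed. For a partner gene shorter than the member, the share of fragments is lower than the share of FPKM.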

How the data were processed

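Total RNA of 3 shcon and 3 shENO1 libraries of SNU16 cells was sequenced. The authors deposited FPKM values for 30716 genes on GRCh38. Their notes name cutadapt, featureCounts and MultiQC without versions, and low-quality and short reads were removed. The aligner, strand setting and annotation release were not stated (not given in the sources used here). Depth was estimated from low FPKM values, of which 95.8% to 96.2% per library then came out as whole fragments (tolerance 0.05 fragments), and fragments per gene used the annotated exon length.

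The 15181 genes whose mean FPKM was 0.5 or more entered limma 3.58.1 (R 4.3.3; lmFit, eBayes with a trend) on log2(FPKM + 1), without a block, and p was adjusted by Benjamini and Hochberg over all of them, with a threshold of 0.05. The script was tested on simulated data. Summaries used Python 3.11.15 and pandas 2.3.3. GENCODE 29 supplied GC content and exon length (99.01% of tested genes), and their trends were removed per library with natural splines of 4 degrees of freedom each, fitted on 7397 genes outside the lists whose mean FPKM was 5 or more. The trends were also removed from genes below that level, such as SLC43A1, which were not used in the fit. Ratios were tested by a two-sided exact permutation test over libraries and adjusted over 6 pairs. Promoter sequences are from RefSeq.

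Libraries with the same replicate number deviated together from the means of their groups (correlations 0.23, 0.118 and 0.256, against -0.208 to 0.061 for other combinations). A block on the replicate number was therefore run as an alternative. The main fit and the ratio tests did not use this pairing. The pairing comes from the data and is not described by the submitters. The members and the gene lists were chosen with earlier results of these data known. Named in the text are all members, ENO1, all genes tested of lists of 6 or fewer, and for the other lists up to 3 called genes per direction with the largest absolute log2 fold change and the most abundant gene. Genes overlapping or neighbouring a member, single markers, and the ATF4 targets below the filter were named by position or list after the values were seen. Alternatives were pseudocounts of 0.1 and 0.5, eBayes without a trend, no filter or one at a mean of 5 FPKM, quantile normalization, median-of-ratios scaling, the block, removal of the trends, and leaving out libraries.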

Additional observations from a re-analysis of the deposited data

How the results depend on the processing

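SLC38A2, SLC38A1, SLC1A4 and ENO1 kept their direction and call under every alternative run. With the replicate number as a block, SLC7A5 (-0.52) was called lower, so that 2 members were lower, where 17.9% of all genes tested were. The block changed no other call of the members. SLC7A5 was also called with a filter of at least 5 FPKM (-0.52, 2 members lower), where SLC43A1 was not tested. That fit called 1814 genes lower, and 7441 genes with known GC content had such a mean, so that the count does not set the members apart. Without a filter SLC7A1 (0.45), SLC3A2 (-0.44) and SLC1A5 (0.39) lost their calls, which left 3 members higher and 0 lower, 0 lysosomal carriers lower, and 1402 genes higher and 1302 lower. That alternative tested more genes. SLC7A1 was also lost with eBayes without a trend (0.45) and with quantile normalization (0.46), SLC3A2 with quantile normalization (-0.33, 0 members lower, 1 ATF4 target lower) and SLC1A5 with median-of-ratios scaling (0.35). SLC7A6 had a negative sign with quantile normalization (-0.019), median-of-ratios scaling (-0.028) and trends removed with or without the block (-0.12). With trends removed, with or without the block, SLC6A9 (0.60) and SLC43A1 (0.62) were called, 0 lysosomal carriers and 1 ATF4 target were lower, and 1429 genes were lower, or 1356 with the block. The cause of these changes was not tested.

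With 1 library left out, the range was -0.74 to -0.39 for SLC7A5, 0.32 to 0.56 for SLC7A1, -0.19 to 0.13 for SLC7A6, -0.54 to -0.39 for SLC3A2, 0.31 to 0.47 for SLC1A5, 0.15 to 0.33 for SLC6A9, 0.13 to 0.35 for SLC43A1 and -0.237 to 0.014 for the log2 ratio of SLC7A5 to SLC3A2. Counts ranged from 3 to 4 members higher, 0 to 2 lower, 0 to 2 lysosomal carriers lower, 0 to 2 ATF4 targets lower, 749 to 3027 genes higher and 755 to 2785 lower. Fewer samples entered each of these fits. With shcon replicate 3 and shENO1 replicate 1 left out together, chosen after seeing the data, SLC7A5 was at -0.83, SLC7A1 at 0.29 and no longer called, and SLC7A6 at -0.24 and called. Then 3 members, 4 lysosomal carriers and 4 ATF4 targets were lower. Of the 15270 genes tested in that fit, 3608 were higher and 3597, or 23.6%, lower. Of the alternative fold changes and ratios, 195 kept direction and side of the threshold, 22 lost a call, 8 gained one and 9 changed sign. Of the alternative counts of genes, 127 stayed within 1.5 times the reported count and 43 did not. Depth limits SLC43A1 the most.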

Other observations

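SLC38A1 and SLC38A2 are neighbours on the minus strand of chromosome 12, 88170 bases apart. Tested genes within 1000000 bases on either side, taken by position after the values of the pair were seen, moved in both directions. ANO6 at 0.50 (adjusted p = 0.0106), ARID2 at 0.66 (adjusted p = 0.00832) and SCAF11 at 0.36 (adjusted p = 0.0337), all limma, were higher, but with the trends of GC content and length removed they were at 0.21, 0.24 and -0.10 and none of the 3 was called. AMIGO2 was at -0.00 (adjusted p = 0.989), and PCED1B fell by 0.54 on the log2 scale (adjusted p = 0.0152) and was at -0.24 with the trends removed (adjusted p = 0.189). SLC38A1 and SLC38A2 were called in both fits.

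The genes whose log2(FPKM + 1) had the highest Pearson correlation with SLC7A5 over the 6 libraries were ERGIC1 (0.9974), DHRS3 (0.9971) and VIPR2 (0.9971), and for SLC3A2 they were LMNB2 (0.9993), TGFBR3L (0.9988) and MFSD3 (0.9986). These are descriptions over 6 libraries that share the same group difference. Among the members, SLC38A1 and SLC38A2 correlated at 0.99, SLC1A4 and SLC38A2 at 0.98, SLC7A5 and SLC3A2 at 0.90, and SLC7A5 and SLC38A2 at -0.76. SLC7A6 correlated at 0.65 with SLC7A5 and at 0.67 with SLC6A9.

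ASNS, the enzyme that makes asparagine and a known ATF4 target, was below the filter and is named after its values were seen. It was at 0.08778, 0.1789 and 0.2457 FPKM in shcon and at 0.9009, 0.6502 and 0.8001 FPKM in shENO1, so that the groups did not overlap. No adjusted p is given for it. Also below the filter in the list of ATF4 targets were VLDLR, whose groups did not overlap, and NUPR1, whose groups overlapped.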
